A study of Rattus norvegicus with 23 samples.

Results

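Plasminogen activation was followed through 7 genes chosen by name: the activators Plat and Plau, the urokinase receptor Plaur, and the serpins Serpine2, Serpinb2, Serpinf1 and Serpinh1. They are 7 of the 30452 genes in the rat count table, and each has a row there. The counts came from poly(A)-selected RNA of rat kidney lines: NRKE, labelled epithelial, and NRKF, the fibroblast counterpart. Both were kept for 24 h without fetal calf serum and then held for 48 h at pH 7.4, the control, or at pH 6.0, set with HCl. The comparisons ask how extracellular acid changes expression in each line, and whether the lines respond alike.

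There were 6 libraries of NRKE at pH 7.4, 6 of NRKE at pH 6.0, 6 of NRKF at pH 7.4 and 5 of NRKF at pH 6.0. The labels also give a sample group, 1 or 3 for NRKE and 4 or 6 for NRKF, without saying what it stands for; each holds 3 libraries per pH except group 4, with 2 at pH 6.0. Total counts ran from 16412564 to 34250535 per library, with a median of 19830621. Values are fragments per 1000000 counted fragments (FPM) after scaling by the trimmed mean of M values. At these depths 3 counts, the limit that a count of 0 allows, equal 0.0839 to 0.203 FPM, a floor that covers counting error only. The labels do not say whether libraries of a group came from separate cultures, so p-values measure the spread between these libraries. As each library holds RNA of many cells, fewer cells of a kind and less RNA per cell cannot be told apart.

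The line labels were checked against markers. Of 10 epithelial markers 8 had a row, and only Krt8, a keratin, was abundant in NRKE, with 499 ± 76.4 FPM at pH 7.4 (SD, n = 6), against 222 ± 26.7 FPM in acid libraries; at pH 7.4 it was higher in NRKF, with 839 ± 193 FPM (SD, n = 6). Cdh1 reached at most 12 counts in an NRKE library, Krt18 and Epcam at most 1, and Esrp1 and Pax2 had no count in any library. Apart from Krt8, the epithelial markers with a row were therefore at or near 0 in the line labelled epithelial. Krt19 and Ocln had no row and were not measured. Col3a1, from the list of 10 fibroblast markers, was higher in NRKE (6149 ± 1378 FPM at pH 7.4, SD, n = 6) than in NRKF (1212 ± 111 FPM, SD, n = 6). Col3a1 was the exception: Pdgfra, Pdgfrb, Col1a1, Col1a2, Dcn, Lum and Twist1 all had higher means in NRKF at pH 7.4. Pdgfra was at 306 ± 48.5 FPM in NRKF and 1.83 ± 1.54 FPM in NRKE (SD, n = 6 each), while Thy1 and Fap stayed at 4 counts or fewer everywhere. Of the 4 endothelial markers Kdr had no count and Cdh5 at most 3. Pecam1 averaged 0.0561 ± 0.0715 FPM in control NRKE libraries and 0.581 ± 0.288 FPM in acid ones, while Tek went the other way and reached 14.3 ± 4.08 FPM in control NRKE libraries and 1.76 ± 0.624 FPM in acid ones (SD, n = 6 each). Of the leukocyte markers Ptprc had at most 6 counts, and Cd68 was at 29.9 ± 4.21 FPM in control NRKF libraries and 229 ± 13.8 FPM in acid ones (SD, n = 6 and 5). In NRKE the means of Cd68, Lyz2 and Csf1r were 1.90, 1.65 and 0.872 FPM at pH 7.4, and 4.15, 4.02 and 2.09 FPM at pH 6.0. The lines are called NRKE and NRKF below.

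Some NRKE libraries carried a low signal of genes that NRKF expresses. It was measured over 34 genes, chosen after seeing the data, with a mean of at least 50 FPM in NRKF at both pH values and at most 5 counts in every NRKE library at pH 6.0. As a share of the NRKF level, the median over these genes was 1.46% in library A021, 0.492% in A022, 0.337% in A033, 0.0415% in A034 and 0% in A023 and A035, all NRKE at pH 7.4. This choice fixes the share in the libraries at pH 6.0 near 0, so a second choice, also made after seeing the data, left them out: 42 genes with the same NRKF levels and at most 5 counts in A023 and in A035, 29 of them shared with the first. Over these the median was 1.38% in A021, 0.459% in A022, 0.307% in A033, 0.0268% in A034 and at most 0.0168% in the 6 libraries at pH 6.0. Single genes reached 1.28% in a library at pH 6.0. With more of the signal in 3 libraries at pH 7.4, a gene that is very abundant in NRKF can seem to fall in NRKE at pH 6.0. For Serpine2, Serpinf1, Mrc2 and counts of listed genes that change in NRKE, values without A021, A022 and A033 are given as well.

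Plasminogen is a circulating proenzyme that tissue-type and urokinase-type activators cleave to plasmin, a protease that dissolves fibrin and degrades matrix. Urokinase acts at the cell surface, bound to its receptor, and serpins trap the activators and plasmin in irreversible complexes. In the kidney both activators are made by tubular and glomerular cells, and the balance between activators and serpins bears on matrix turnover; some serpins, among them Serpinf1 and Serpinh1, inhibit no protease.

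Of the 7 genes 6 passed the filter on low counts, which kept 14777 genes; Plau did not. In NRKE, 4 of these 6 changed at pH 6.0 (edgeR, adjusted p under 0.05), against 61.2% of all genes tested. Of these 4, Serpinh1 rose and Plat, Serpine2 and Serpinf1 fell, while 24.7% of all genes rose and 36.6% fell. With NRKE scaled and fitted alone these were 4077 rising and 4258 falling of 13377 genes, so the excess of falls among all genes was smaller in that fit. In NRKF 2 of the 6 changed against 28.9% of all genes: Plaur rose (background 14.5% rising) and Plat fell (background 14.4% falling). The responses of the lines differed for 4 of the 6, against 41.4% of all genes. With 6 genes each share moves in large steps. A share near that of all genes is no result about the members, no test of the set was run where it was higher, and what follows describes single genes. Between the lines, leaving out Serpinb2, which passed the filter through NRKF, 4 of 5 members differed at pH 7.4 and 5 of 5 at pH 6.0, against 68.8% and 75.5% of all genes.

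Plat encodes tissue-type plasminogen activator (ENSRNOG00000019018, chromosome 16). In NRKE it ran from 107 to 161 FPM at pH 7.4, with a median of 135 FPM, and from 26.6 to 60.5 FPM at pH 6.0, with a median of 42 FPM. The groups did not overlap: every acid library lay below every control library. Plat fell by 1.65 on the log2 scale (SE 0.19, adjusted p = 6.82e-08, n = 6 and 6, edgeR). In NRKF it ran from 230 to 266 FPM at pH 7.4, with a median of 247 FPM, and measured 127, 164, 177, 191 and 175 FPM in the 5 libraries at pH 6.0. Again the groups stood apart, with the lowest acid value in A042. The fall in NRKF was smaller, -0.58 (SE 0.19, adjusted p = 0.0260, edgeR), and without A042 it was -0.50 with an adjusted p of 0.0770. The response was more negative in NRKE than in NRKF by 1.07 (difference -1.07, SE 0.27, adjusted p = 0.00229, edgeR). NRKE held less Plat than NRKF at both pH values, by -0.89 (SE 0.18, adjusted p = 1.56e-04) at pH 7.4 and -1.96 (SE 0.20, adjusted p = 2.52e-09) at pH 6.0. The order of the group means was NRKF at pH 7.4, NRKF at pH 6.0, NRKE at pH 7.4 and NRKE at pH 6.0, and the middle neighbours, 167 ± 24.0 FPM (SD, n = 5) and 135 ± 24.8 FPM (SD, n = 6), overlapped in range.

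Within NRKE the level of Plat followed the sample group. In group 1 it was 152, 161 and 158 FPM at pH 7.4 and 55.2, 58.7 and 60.5 FPM at pH 6.0. In group 3 it was 117, 107 and 113 FPM at pH 7.4 and 27.0, 26.6 and 28.9 FPM at pH 6.0. Group 3 was lower at either pH without overlap, and Plat fell in both. The fall was larger in group 3 (-2.04, SE 0.09, adjusted p = 9.83e-13) than in group 1 (-1.43, SE 0.09, adjusted p = 1.86e-10), a difference of -0.60 (SE 0.13, adjusted p = 0.00417, edgeR, model with 8 groups). Of all genes tested in that model 9.91% differed in response between the NRKE sample groups. Between NRKF groups 4 and 6 the share was 0% of 15478 genes by edgeR, with 624 genes at an unadjusted p under 0.05 and 10 called by DESeq2. Without A021, A022 and A033 the difference for Plat was -0.57 with an adjusted p of 0.0978.

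Plau encodes urokinase-type plasminogen activator (ENSRNOG00000010516, chromosome 15). It was close to undetected, with 21 counts over all 23 libraries and none in 13 of them. In NRKE its highest count was 4 (0.226 FPM, A035) at pH 7.4, and none was found in the 6 libraries at pH 6.0. In NRKF at pH 7.4 the highest were 5 counts in A051 (0.189 FPM) and 4 in A053 (0.216 FPM), and the libraries at pH 6.0 held 0.0510, 0, 0.0742, 0.0361 and 0.0556 FPM. A count above the floor of 3 appeared in 3 of the 23 libraries, so no fold change is given. The exact two-sided permutation test of the FPM values gave adjusted p = 0.121 for pH in NRKE, 0.785 for pH in NRKF, 1 for the lines at pH 7.4 and 0.121 for the lines at pH 6.0, over 4 tests. Leaving out A043, the NRKF library at pH 6.0 with no count, took the smallest adjusted p to 0.0381. A difference in Plau was not detectable at this depth with all libraries in.

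Plaur encodes the urokinase receptor (ENSRNOG00000037931, chromosome 1), a membrane-anchored protein that holds urokinase at the cell surface. It was expressed in every library although its ligand was near 0. In NRKE it ran from 42 to 52.8 FPM at pH 7.4, with a median of 45.3 FPM, and from 44.1 to 58.3 FPM at pH 6.0, with a median of 48.4 FPM. These ranges overlapped for most of their width, and the change of 0.13 missed the threshold (SE 0.08, 95% confidence interval -0.04 to 0.30, adjusted p = 0.168, edgeR). In NRKF it ran from 46.1 to 58.1 FPM at pH 7.4, with a median of 48.7 FPM, and measured 58.8, 57.9, 61.7, 68.3 and 53.3 FPM at pH 6.0. Of the acid libraries A042, A054 and A055 were above every control, while A043 (57.9 FPM) and A056 (53.3 FPM) lay below the highest control, A052 (58.1 FPM). Plaur rose in NRKF by 0.27 (SE 0.09, adjusted p = 0.0224, edgeR); the adjusted p was 0.0523 without A051 and 0.0825 without A055. The responses did not differ by test (difference -0.13, 95% confidence interval -0.38 to 0.11, adjusted p = 0.399).

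The NRKE value for Plaur depended on how the libraries were grouped. With NRKE fitted alone the change was 0.22 (adjusted p = 0.0346, edgeR), a fit that also moved the median of all genes in NRKE from -0.12 to 0.00, written as -0.00231. In sample group 1 Plaur rose, from 42, 46.6 and 42.4 FPM to 49.2, 58.3 and 54.9 FPM (0.31, SE 0.10, adjusted p = 0.0182). In group 3 the libraries held 44.9, 45.6 and 52.8 FPM at pH 7.4 and 44.1, 46.3 and 47.6 FPM at pH 6.0 (-0.06, SE 0.10, adjusted p = 0.674). The difference between these responses was not called (-0.37, SE 0.15, adjusted p = 0.127). Plaur was the member with the most similar values across all groups, from 45.7 ± 3.88 FPM in NRKE at pH 7.4 to 60 ± 5.55 FPM in NRKF at pH 6.0 (SD, n = 6 and 5). The difference between the lines was not called at pH 7.4 (-0.13, SE 0.08, adjusted p = 0.170) and was called at pH 6.0 (-0.26, SE 0.09, adjusted p = 0.00850).

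Serpine2 encodes protease nexin, a secreted serpin that inhibits thrombin, urokinase, tissue-type activator and plasmin (ENSRNOG00000015461, chromosome 9). In NRKE it ran from 28.2 to 69.3 FPM at pH 7.4, with a median of 39.6 FPM, and from 3.48 to 6.61 FPM at pH 6.0, with a median of 4.88 FPM. No acid library came near a control library; A021 was the highest and A023 the lowest control. Serpine2 fell by 3.11 in NRKE (SE 0.17, adjusted p = 5.28e-13, n = 6 and 6, edgeR), the largest change among the members tested. In NRKF it ran from 2812 to 3340 FPM at pH 7.4, with a median of 3176 FPM, and measured 3047, 3187, 3380, 3363 and 3090 FPM at pH 6.0. The NRKF groups overlapped in part, with A054 and A055 above every control and the lowest control, A051, below every acid library. The change was 0.04 (SE 0.16, 95% confidence interval -0.29 to 0.37, adjusted p = 0.880). The responses differed by -3.16 (SE 0.23, adjusted p = 3.58e-10, edgeR).

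The lines differed in Serpine2 more than in any other member, by -6.18 at pH 7.4 (SE 0.19, adjusted p = 3.09e-18) and by -9.34 at pH 6.0 (SE 0.22, adjusted p = 2.21e-20). As Serpine2 is so abundant in NRKF, the low signal of NRKF genes in NRKE libraries bears on its level. At the median share, that signal would amount to 45.5 FPM of the 69.3 FPM in A021, 15.4 of 41.8 FPM in A022 and 10.5 of 44.2 FPM in A033. The remainder was 23.8, 26.4, 28.2, 33.7, 36.2 and 36.7 FPM in A021, A022, A023, A033, A034 and A035, and from 3.48 to 6.43 FPM in the libraries at pH 6.0. The share varied between the 34 genes, from 0.779% to 2.37% in A021 and from 0.0550% to 1.58% in A033. Serpine2 stood at 2.22% and 1.42% of its NRKF level there, inside these ranges, so in A021 and A033 a remainder of 0 cannot be told apart from the one given. In A022, A023, A034 and A035 it stood at 1.34%, 0.903%, 1.2% and 1.18%, above the highest of the 34 genes (1.12%, 0.442%, 0.408% and 0.539%). In the libraries at pH 6.0 Serpine2 stood at 0.108% (A037) to 0.206% (A026), below the highest of the 34 genes in each library. A remainder of 0 cannot be told apart there either, so the size of the fall is uncertain. The fall was -2.78 (SE 0.14, adjusted p = 1.44e-11) without A021, A022 and A033, and -2.65 (SE 0.13, adjusted p = 7.91e-14) after subtraction of the signal. Both are alternatives chosen after seeing the data. The 34 genes were chosen for low counts at pH 6.0, so the subtraction removes almost nothing there by that choice. The second choice of genes was not used for it. The summed FPM of the 10 fibroblast markers moved with pH as well, from 4899 to 8102 in the NRKE libraries at pH 7.4 and from 1830 to 3110 at pH 6.0; Col3a1 made up most of it in every library, and Dcn and Thy1 were at 0 throughout NRKE.

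**Figure D1:**
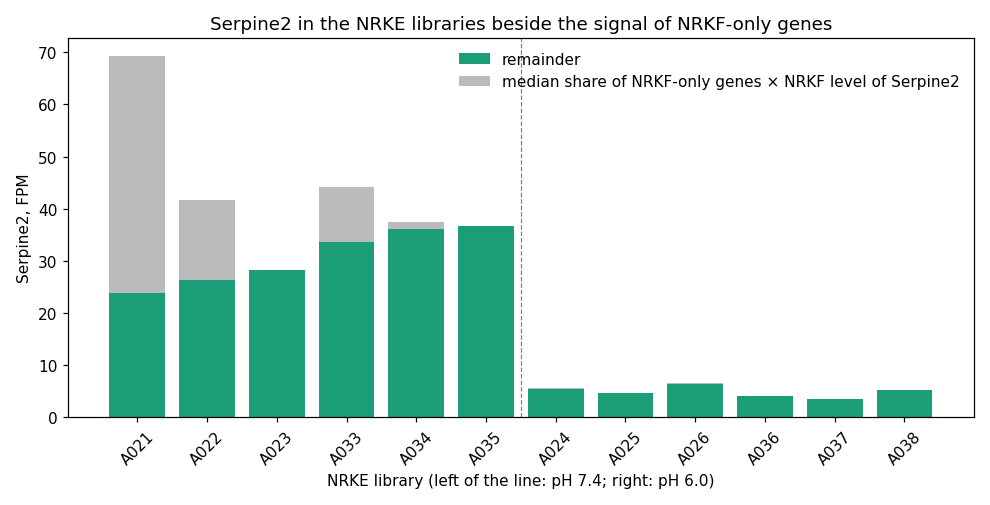
Serpine2 in each NRKE library, in FPM; bars start at 0, grey is the amount expected from the median share of NRKF-only genes, and green is the remainder. At the median share, at pH 7.4 the remainder lies between 23.8 and 36.7 FPM, and at pH 6.0 between 3.48 and 6.43 FPM. The NRKF-only genes were chosen for low counts at pH 6.0, so the grey part there is near 0 by that choice.

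Serpinb2 encodes a mostly intracellular serpin that inhibits urokinase (ENSRNOG00000002460, chromosome 13). It passed the filter through NRKF, so its difference between the lines is a description. In NRKE it ran from 0.0566 to 0.302 FPM at pH 7.4, with a median of 0.189 FPM, and from 0 to 0.291 FPM at pH 6.0, with a median of 0.0262 FPM. No NRKE library had more than 10 counts, and 3 of 6 acid libraries had none. In NRKF it ran from 1.07 to 3.22 FPM at pH 7.4, with a median of 2.07 FPM, and measured 1.43, 1.10, 2.08, 1.55 and 2.78 FPM at pH 6.0. Every NRKF library was above every NRKE library, and within each line the pH groups overlapped. No pH change was called in either line; in NRKF it was -0.24 (95% confidence interval -1.04 to 0.56, adjusted p = 0.690, edgeR). The NRKE mean at pH 6.0, 0.0838 FPM, was under the floor of each of these libraries, and only A026, with 10 counts, was above its floor, so no fold change is given for NRKE. The fit without A026 did call a fall, from counts that were then all at or under the floor at pH 6.0. The means of the NRKF sample groups moved in different directions, from 3.22, 2.18 and 2.84 to 1.43 and 1.10 FPM in group 4, and from 1.97, 1.07 and 1.45 to 2.08, 1.55 and 2.78 FPM in group 6. Neither change was called (-1.12, adjusted p = 0.0834, and 0.50, adjusted p = 0.416), nor was their difference.

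Serpinf1 encodes pigment epithelium-derived factor, a secreted serpin without protease inhibition that limits vessel growth (ENSRNOG00000003172, chromosome 10). In NRKE it ran from 85.7 to 181 FPM at pH 7.4, with a median of 102 FPM, and from 45.8 to 85.7 FPM at pH 6.0, with a median of 60.7 FPM. The groups touched: A023, the lowest control, and A026, the highest acid library, were equal to 3 digits. Serpinf1 fell by 0.84 (SE 0.17, adjusted p = 1.76e-04, n = 6 and 6, edgeR), and without A021, A022 and A033 the value was -0.97 (SE 0.20, adjusted p = 4.11e-04). In NRKF it ran from 909 to 1342 FPM at pH 7.4, with a median of 1007 FPM, and measured 925, 821, 993, 1211 and 902 FPM at pH 6.0. These overlapped, with a change of -0.12 (SE 0.18, 95% confidence interval -0.49 to 0.24, adjusted p = 0.648). The responses differed by -0.71 (SE 0.24, adjusted p = 0.0222), and without A055 by -0.62 with an adjusted p of 0.0525. NRKE held less Serpinf1 than NRKF, by -3.20 (SE 0.18, adjusted p = 1.22e-13) at pH 7.4 and -3.91 (SE 0.19, adjusted p = 5.43e-15) at pH 6.0.

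The fall of Serpinf1 in NRKE lay mostly in sample group 3. There the libraries went from 129, 112 and 181 FPM to 54.3, 45.8 and 59.3 FPM (-1.41, SE 0.18, adjusted p = 1.09e-06). In group 1 they went from 91.4, 92.1 and 85.7 FPM to 62.1, 78.7 and 85.7 FPM, and the change of -0.25 was not called (SE 0.17, adjusted p = 0.249). The difference between the responses was -1.16 (SE 0.25, adjusted p = 0.00472, edgeR, model with 8 groups); without A021, A022 and A033 it was -1.28 with an adjusted p of 0.0563.

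Serpinh1 encodes the collagen chaperone of the endoplasmic reticulum, a serpin that binds procollagen and inhibits no protease (ENSRNOG00000016831, chromosome 1). In NRKE it ran from 1031 to 1440 FPM at pH 7.4, with a median of 1235 FPM, and from 2250 to 3164 FPM at pH 6.0, with a median of 2510 FPM. All acid libraries were far above all controls. Serpinh1 rose by 1.06 in NRKE (SE 0.11, adjusted p = 1.06e-08, n = 6 and 6, edgeR), the one member to rise there. In NRKF it ran from 555 to 669 FPM at pH 7.4, with a median of 609 FPM, and measured 753, 532, 561, 579 and 516 FPM at pH 6.0. The groups overlapped, and A042 stood above the other acid libraries. The change was -0.06 (SE 0.11, 95% confidence interval -0.29 to 0.17, adjusted p = 0.739), and the responses differed by 1.11 (SE 0.15, adjusted p = 4.05e-06, edgeR). Serpinh1 was the member with more RNA in NRKE than in NRKF, by 1.02 (SE 0.11, adjusted p = 8.19e-09) at pH 7.4 and 2.13 (SE 0.12, adjusted p = 4.92e-14) at pH 6.0. Both NRKE sample groups rose: group 1 from 1031, 1128 and 1130 to 2250, 2459 and 2532 FPM, and group 3 from 1385, 1339 and 1440 to 2488, 2594 and 3164 FPM.

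**Figure D2:**
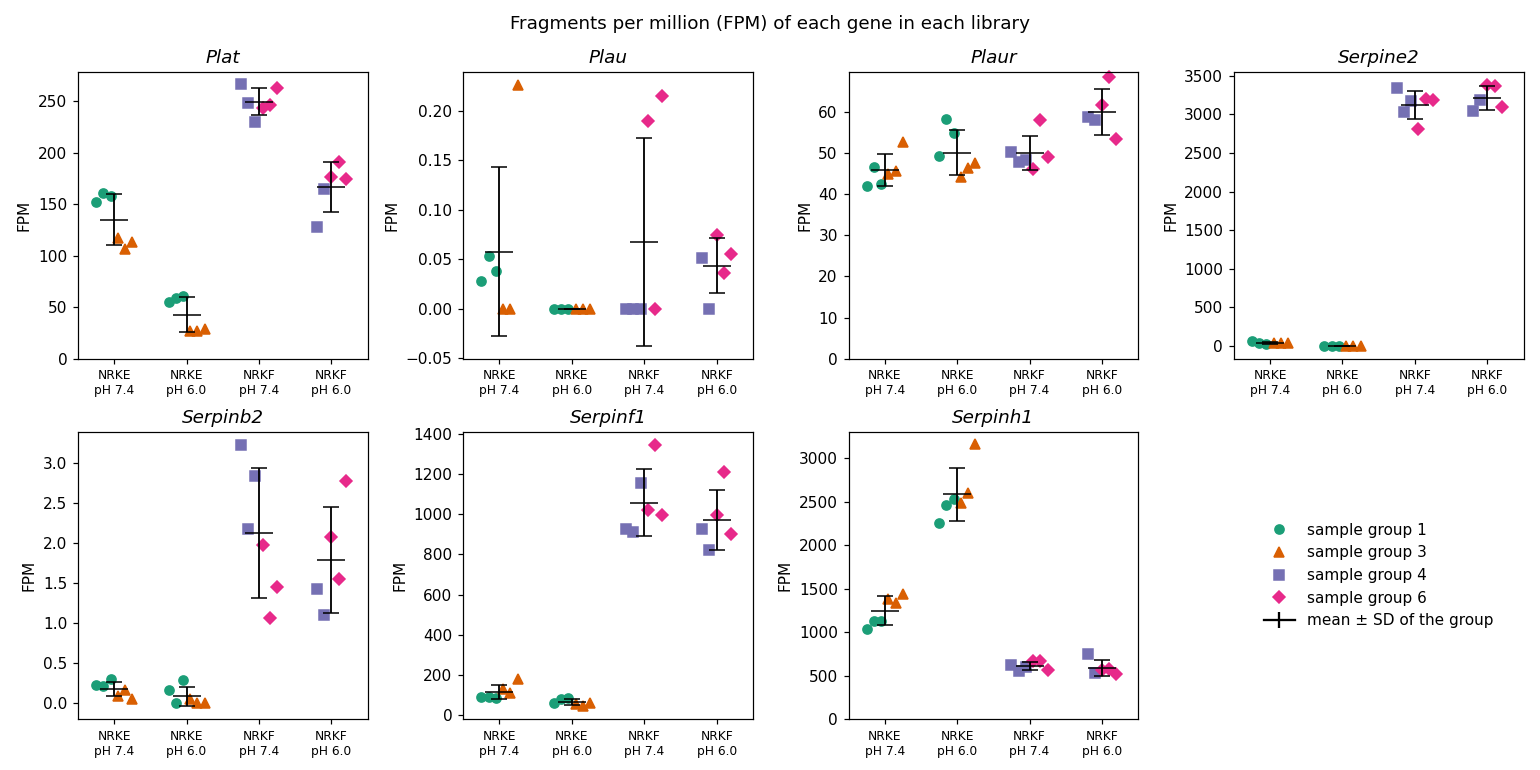
FPM of the 7 genes in each of the 23 libraries, by line and pH on a linear axis per gene; symbols mark the sample group and black bars the mean ± SD of the group. Serpinh1 is higher and Plat lower in every NRKE library at pH 6.0 than at pH 7.4, and Plat splits by sample group in NRKE.

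**Figure D3:**
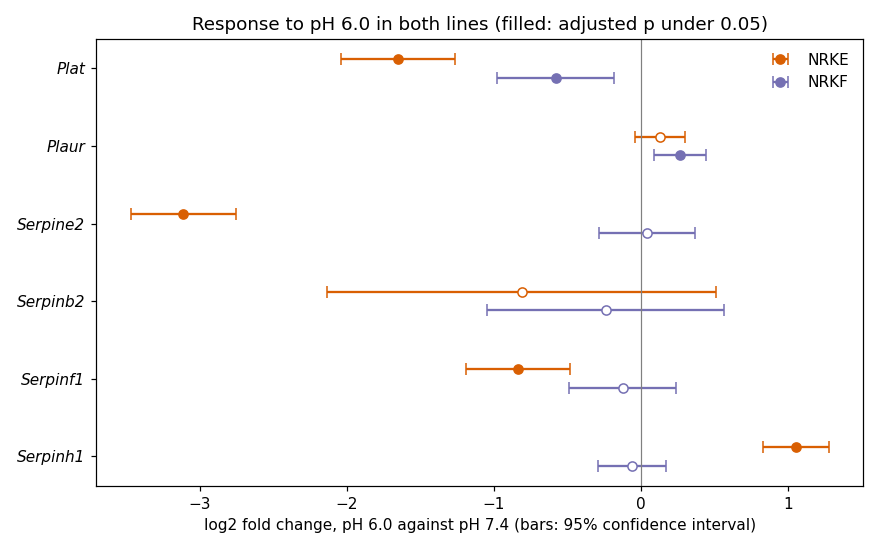
Log2 fold change at pH 6.0 against pH 7.4 for the 6 genes tested, in NRKE (orange) and NRKF (violet), with 95% confidence intervals; filled points have an adjusted p under 0.05. Serpine2 lies at -3.11 in NRKE and 0.04 in NRKF, and Serpinh1 at 1.06 and -0.06.

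Around these genes lie the proenzyme and the proteins that hold it at the cell surface. Plg, the proenzyme, was at 0.0437 FPM over all libraries and was not tested, like Cpb2 and Hrg, and 4 of the 7 genes listed were. In NRKE Anxa2 and S100a10, subunits of an annexin complex that binds plasminogen and its tissue-type activator, fell by 1.06 (SE 0.13, adjusted p = 1.22e-07) and 0.59 (SE 0.19, adjusted p = 0.00811). Eno1, a glycolytic enzyme that also binds plasminogen at the surface, fell by 0.62 (SE 0.12, adjusted p = 8.03e-05), and Plgrkt, a membrane receptor of plasminogen, rose by 0.56 (SE 0.14, adjusted p = 0.00137). These 1 rise and 3 falls, the same without A021, A022 and A033, stand beside 24.7% and 36.6% of all genes. In NRKF 2 of the 4 changed, beside 28.9% of all genes, Anxa2 by -0.47 (SE 0.13, adjusted p = 0.00843) and S100a10 by -0.57 (SE 0.19, adjusted p = 0.0298). With sample group as a block 1 rose and 2 fell there. The call of Anxa2 was lost in sample group 4 alone (-0.52, adjusted p = 0.0532) and in group 6 alone (-0.46, adjusted p = 0.0579). That of S100a10 was lost in group 4 alone (adjusted p = 0.254, edgeR), and over the alternatives its change was at its smallest -0.42. Anxa2 fell more in NRKE by test (difference -0.58, SE 0.18, adjusted p = 0.0113), and for S100a10 the difference was -0.02 (SE 0.27, adjusted p = 0.966), with a sign that varied between alternatives. The median log2 fold change of the 4 was -0.60 in NRKE and -0.24 in NRKF, beside -0.12 and 0.00 (0.00326 in full) over all genes tested above the floor.

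Complexes of activator and serpin are taken up by receptors of the LDL receptor family, of which 4 of 5 listed genes were tested. In NRKE 3 of the 4 fell, beside 36.6% of all genes: Lrpap1, a chaperone of these receptors, by 1.06 (SE 0.13, adjusted p = 3.26e-07), the receptor Vldlr by 0.76 (SE 0.16, adjusted p = 3.13e-04), and Sorl1. Sorl1 passed the filter through NRKF and averaged 0.125 and 0.0182 FPM in NRKE, near or under the floor, so only Lrpap1 and Vldlr count as falls of expressed genes. Without A021, A022 and A033, as after subtraction of the NRKF signal, the count was 2. Lrp1, the main uptake receptor, went from 967 to 861 FPM in group means, a change of -0.17 that was not called (SE 0.20, adjusted p = 0.486). None of the 4 was called in NRKF, and 1 was called higher there in either of those fits. The response of Lrpap1 differed between the lines by -0.91 (SE 0.19, adjusted p = 4.98e-04).

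Of 5 listed partners of the urokinase receptor 4 were tested, and 3 fell in NRKE against none in NRKF (edgeR), beside 36.6% and 14.4% of all genes. By DESeq2 1 of the 4 was called lower in NRKF. The responses differed between the lines by test for 1 of the 4, Igf2r, beside 41.4% of all genes, and with sample group as a block for 2 of the 4. Igf2r, which binds the receptor and latent growth factors, fell by 1.52 (SE 0.28, adjusted p = 4.74e-05) and differed between the lines (-1.56, SE 0.39, adjusted p = 0.00258). Mrc2, a collagen uptake receptor that associates with Plaur, fell by 1.47 (SE 0.38, adjusted p = 0.00188), from 27.0 to 9.72 FPM in group means, beside 895 FPM in NRKF at pH 7.4. Without A021, A022 and A033 its fall was -1.23 (SE 0.44, adjusted p = 0.0238), and the count was again 3. The integrin Itgb1 fell by 0.26 (SE 0.07, adjusted p = 0.00323). The count of falls was 2 with NRKE fitted alone and in sample group 1 alone, where Itgb1 was not called. Over the alternatives the change of Itgb1 was at its smallest -0.17, with an adjusted p of up to 0.0793 (edgeR). Itgav was not called (-0.24, SE 0.13, adjusted p = 0.0999), except with sample group as a block (-0.25, adjusted p = 0.0411), which gave 4 of 4, without A024 (-0.30, adjusted p = 0.0498) and without A035 (-0.32, adjusted p = 0.0261). Of 5 related proteases St14, a membrane serine protease, was the one tested. It passed the filter through NRKF, and its NRKE mean went from 0.754 to 0.147 FPM, the latter within the range of the floors, so no fold change is given.

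Serpinh1 works with the enzymes that modify and fold procollagen, 13 of which were listed and 12 tested. Of these P3h2 passed the filter through NRKF and averaged 0.00466 and 0 FPM in NRKE at pH 7.4 and 6.0. In NRKE 5 rose and 4 fell, or 5 and 3 without A021, A022 and A033, beside 24.7% and 36.6% of all genes. The prolyl hydroxylase subunit P4ha1 rose by 1.07 (SE 0.08, adjusted p = 1.27e-10), the folding enzyme Fkbp14 by 1.19 (SE 0.08, adjusted p = 2.03e-11), P3h1 by 0.74 (SE 0.11, adjusted p = 2.36e-06), Plod3 by 0.72 (SE 0.07, adjusted p = 3.89e-09) and P4hb by 0.37 (SE 0.09, adjusted p = 0.00124). Plod1 fell by 0.66 (SE 0.07, adjusted p = 6.86e-08), Plod2 by 0.49 (SE 0.15, adjusted p = 0.00771), Fkbp10 by 0.36 (SE 0.09, adjusted p = 0.00108) and P4ha3 by 0.25 (SE 0.07, adjusted p = 0.00371). Not every fit called these falls, and no test of the difference between sample groups is given for them. In group 1 alone Plod2 was -0.10 (adjusted p = 0.516), P4ha3 -0.07 (adjusted p = 0.488) and Fkbp10 -0.19 (adjusted p = 0.165), and in group 3 alone they were -1.01, -0.43 and -0.54. With NRKE fitted alone Plod2 was -0.40 (adjusted p = 0.0598) and P4ha3 -0.16 (adjusted p = 0.105), and without A021, A022 and A033 Plod2 was -0.45 (adjusted p = 0.0592). The list thus split, and its median over 11 genes above the floor was -0.04.

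In NRKF, where Serpinh1 did not change by test, 3 of the 12 rose and 2 fell, with a median of 0.09, beside 14.5% and 14.4% of all genes; without A021, A022 and A033 the counts were 2 and 1. Plod3 rose by 0.45 (SE 0.07, adjusted p = 4.07e-05), P3h1 by 0.30 (SE 0.11, adjusted p = 0.0441) and P4hb by 0.29 (SE 0.10, adjusted p = 0.0257), while P4ha2 fell by 0.34 (SE 0.11, adjusted p = 0.0219) and Plod2 by 0.43 (SE 0.16, adjusted p = 0.0488). Over 9 alternatives P3h1 ran from 0.14 to 0.51 (adjusted p up to 0.362, edgeR) and lost its call in 3. P4hb and Plod2 each lost theirs in 2. With 1 library left out P3h1 was as low as 0.20 and lost its call in 9 of 23 fits, and Plod2 in 14. The responses differed between the lines for 7 of the 12, 4 higher in NRKE, as for Serpinh1, and 3 lower, beside 41.4% of all genes. The higher ones were P4ha1 (0.98, SE 0.12, adjusted p = 7.54e-07), Fkbp14 (1.28, SE 0.12, adjusted p = 1.51e-08), P3h1 (0.44, SE 0.15, adjusted p = 0.0270) and Plod3 (0.28, SE 0.10, adjusted p = 0.0304). The lower ones were Plod1 (-0.81, SE 0.11, adjusted p = 2.44e-06), P4ha3 (-0.43, SE 0.10, adjusted p = 0.00184) and Fkbp10 (-0.44, SE 0.13, adjusted p = 0.00825). The difference for P3h1 was 0.39 (adjusted p = 0.0567) without A056. That for Plod3 was 0.23 without A021 (adjusted p = 0.0564), 0.25 without A054 (adjusted p = 0.0630), 0.26 without A055 (adjusted p = 0.0543) and 0.24 without A056 (adjusted p = 0.0641). Without A021, A022 and A033 neither was called, with 0.35 (adjusted p = 0.135) for P3h1 and 0.16 (adjusted p = 0.231) for Plod3.

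The collagens themselves did not rise with their chaperone. Of 9 listed collagen genes none rose and 8 fell in NRKE, with a median of -1.22, beside 36.6% of all genes falling and their median of -0.12. In NRKE at pH 6.0 Col1a2, Col6a1 and Col6a2 averaged 0.347, 0.195 and 0.342 FPM, near the floor. With NRKE alone 7 of the 9 passed the filter. The count of falls included Col1a1, Col1a2, Col6a1 and Col6a2, which NRKF expresses at far higher levels. It was 5 without A021, A022 and A033, with a median of -0.53, 3 after subtraction of the NRKF signal, with a median of -0.41, and 4 of 7 tested with NRKE fitted alone, with a median of -0.42. Col3a1, abundant in NRKE, fell by 1.36 (SE 0.16, adjusted p = 1.27e-07), Col5a1 by 0.51 (SE 0.14, adjusted p = 0.00312) and Col5a2 by 0.38 (SE 0.13, adjusted p = 0.0112), and these 3 were called in both alternatives. Other fits did not call all of them, with no test of the difference between sample groups given here: Col5a2 was -0.05 in group 1 alone (adjusted p = 0.780), -0.76 in group 3 alone (adjusted p = 1.07e-04) and -0.29 with NRKE fitted alone (adjusted p = 0.0643), and Col5a1 was -0.46 in group 3 alone (adjusted p = 0.0739). In NRKF the same 3 fell, beside 14.4% of all genes, Col3a1 by 1.49 (SE 0.17, adjusted p = 5.47e-07), Col5a1 by 0.95 (SE 0.15, adjusted p = 3.45e-05) and Col5a2 by 0.73 (SE 0.13, adjusted p = 1.93e-04). With NRKF fitted alone 6 of the 9 were called lower and 1 higher, and with sample group as a block 4 were called lower.

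Of 3 listed receptors of pigment epithelium-derived factor 2 were tested. Pnpla2, a triglyceride lipase that binds the factor, rose by 0.68 in NRKE (SE 0.08, adjusted p = 7.63e-08) and by 1.22 in NRKF (SE 0.08, adjusted p = 9.44e-11), a difference of -0.54 (SE 0.11, adjusted p = 4.80e-04). Plxdc2 went from 0.953 to 0.135 FPM in NRKE and from 0.526 to 0.0898 FPM in NRKF in group means. The values at pH 6.0 lie within or under the floors of their libraries, and the gene was not tested with either line fitted alone, so no fold change is given.

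The table holds 38 further serpins, of which 11 were tested and 27 were not, 9 of these with no count in any library. In NRKE 1 of the 11 rose and 7 fell, beside 24.7% and 36.6% of all genes. Without A021, A022 and A033 the counts were 0 and 4. With sample group as a block, by DESeq2 and after subtraction of the NRKF signal they were 2 and 7. In NRKF 1 rose and 4 fell, or 2 and 2 of 10 with that line fitted alone, beside 14.5% and 14.4% of all genes. The medians were -0.78 in NRKE and -0.22 in NRKF. Serping1, the inhibitor of the complement protease C1, fell from 822 ± 422 to 148 ± 41.1 FPM in NRKE (SD, n = 6 each). Its log2 change there was -2.48 (SE 0.55, adjusted p = 4.42e-04), and in NRKF, at 6.49 FPM or less in the means, it was -2.29 (SE 0.73, adjusted p = 0.0208), or -0.96 with an adjusted p of 0.218 without A051. Serpini1, the neuronal inhibitor of tissue-type activator, fell by 0.88 in NRKE (SE 0.15, adjusted p = 2.86e-05) and rose by 0.49 in NRKF (SE 0.16, adjusted p = 0.0256), and the responses differed by -1.37 (SE 0.22, adjusted p = 3.04e-05). Its rise in NRKF ran from 0.26 to 0.58 over 9 alternatives, with the call lost in 1. That call was also lost in 5 of 23 fits without 1 library. Serpinb9, an inhibitor of granzyme B, went the other way, up by 0.28 in NRKE (SE 0.09, adjusted p = 0.0128) and down in NRKF (-0.89, SE 0.10, adjusted p = 2.83e-07), with a difference of 1.17 (SE 0.14, adjusted p = 3.22e-07). The rise of Serpinb9 was 0.04 in sample group 1 alone (adjusted p = 0.737), 0.48 in group 3 alone (adjusted p = 8.78e-05) and 0.30 without A021, A022 and A033 (adjusted p = 0.0513); no test between these groups is given. Serpinb8 fell by 0.50 in NRKE (SE 0.19, adjusted p = 0.0300), a call lost without any one of 6 libraries. Serpinb1a (98.4 FPM over all libraries) and Serpinb6a (215 FPM) were called in neither line.

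The genes most like each member were found by Pearson's r of log2(FPM + 0.5) over the 23 libraries, among 9912 protein-coding genes averaging 5 FPM or more. All points share the 4 groups, so r mainly ranks agreement with the group pattern and carries no p. Plat was closest to Tmem80 (r = 0.990), Gas2l1 and Foxp1, and Plaur to Cfap298 (r = 0.911), Card19 and Lrwd1. Serpine2 was closest to Il33 (r = 0.995), Lpar1 and Fadd, Serpinf1 to Lgals3bp (r = 0.995), Eva1b and Cenpb, and Serpinh1 to Fdft1 (r = 0.993), Cdc16 and Eif3c. Within the 12 NRKE libraries r between Serpine2 and Il33 was 0.970, and within the 11 NRKF libraries it was -0.151.

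Promoter windows are shown for Serpinh1, Serpine2 and Serpinf1, the members that changed in NRKE and have an entry; 6 of the 7 members have one, and Plat does not. The windows are the 250 bases before the RefSeq start on build GRCr8, read 5′ to 3′ on the gene's strand, here the minus strand for all 3. The motifs searched, on both strands, were AP-1, spelled TGANTCA, the cAMP response element, spelled TGACGTCA, facing repeats of the heat shock element, spelled GAANNTTC, the GC box, spelled GGGCGG, and the TATA box, spelled TATAAA. Matches are in capitals. Neighbouring matches may share bases.
Serpinh1, chr1:163062977-163063226: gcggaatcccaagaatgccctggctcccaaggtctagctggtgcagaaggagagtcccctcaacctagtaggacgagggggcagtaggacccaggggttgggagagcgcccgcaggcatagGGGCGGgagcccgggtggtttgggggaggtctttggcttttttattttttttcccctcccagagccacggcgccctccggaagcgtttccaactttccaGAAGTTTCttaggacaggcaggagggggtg
Serpine2, chr9:88637203-88637452: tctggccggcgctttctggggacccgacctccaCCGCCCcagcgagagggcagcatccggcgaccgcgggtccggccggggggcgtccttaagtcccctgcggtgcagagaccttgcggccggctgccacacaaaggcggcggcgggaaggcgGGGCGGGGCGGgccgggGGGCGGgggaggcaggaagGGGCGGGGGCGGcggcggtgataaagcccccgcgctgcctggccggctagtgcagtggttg
Serpinf1, chr10:60760899-60761148: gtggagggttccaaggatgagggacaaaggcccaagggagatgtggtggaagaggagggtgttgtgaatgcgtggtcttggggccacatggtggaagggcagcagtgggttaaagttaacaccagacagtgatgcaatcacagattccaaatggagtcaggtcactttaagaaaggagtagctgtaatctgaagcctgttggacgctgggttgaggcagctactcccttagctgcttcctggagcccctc

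The window of Serpinh1 holds GAAGTTTC, which fits the heat shock pattern, from 30 to 23 bases before the start, and a GC box. The pattern occurs in 7.23% and the GC box in 30.5% of the 33469 promoter windows in the table. Serpine2 holds 6 GC boxes in a window of 76.8% G and C, and Serpinf1 none of the motifs in 53.2%. Of the members not printed, Plaur holds TGACTCA and Serpinb2 TGATTCA, both matches to the AP-1 motif, which 6.34% of windows hold, and Plau holds 3 GC boxes. The cAMP response element (1.59% of windows) and the TATA box (12.9%) were found in none of the 6. A match describes letters in a window and is no evidence of binding.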

How the data were processed

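Per the labels and the study's methods, the authors aligned poly(A) RNA-seq reads with HISAT2 2.1.0 and the deposited values are raw counts of fragments per gene from featureCounts, with multi-mapped reads counted; genes with near-identical copies, clade B serpins and Eno1 among them, are uncertain to that extent, and whether strand was used is not given in the sources used here. The labels name rat build rn6 and the methods rn7; the table gives chromosomes only. A further 13 per-sample columns matched no label and were not used.

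Genes were filtered with filterByExpr (minimum count 10, minimum total 15), scaled by TMM and tested with edgeR 4.0.16 in R 4.3.3 (glmQLFit, glmQLFTest) in 1 fit of 4 groups, or 8 groups with sample group, with Benjamini-Hochberg adjustment over all genes tested at 0.05. Confidence intervals (95%) use the fit's degrees of freedom. Plau, which failed the filter, was tested by exact permutation (scipy 1.17.1). Library pairs of a group differed by more than sampling noise (chi-square per degree of freedom from 5.91 to 107). The pipeline was tested on simulated data with changes planted only in NRKE at pH 6.0. The simulation used a fixed spread and, before planting, the same mean per gene in both lines. It thus did not test the recovery of changes in NRKF or of sample group differences.

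Alternatives were RLE size factors, no count filter, DESeq2 1.42.0, each line alone, sample group as a block, each sample group alone, and leaving out each library. Omitting A021, A022 and A033, and subtracting NRKF signal (median share times the NRKF mean at that pH), were chosen after seeing the data. Members and lists were chosen with earlier results of these data known. Named genes were the members, genes of the lists, further serpins averaging 5 FPM or more, and the 3 genes most like each member; 1 serpin that the rule takes is not reported here.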

Additional observations from a re-analysis of the deposited data

Results flagged for a closer look

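A difference between the lines in the response to pH 6.0 was found by test for 4 members. The response in NRKE minus that in NRKF was -1.07 for Plat, -3.16 for Serpine2, -0.71 for Serpinf1 and 1.11 for Serpinh1 on the log2 scale. A difference between the NRKE sample groups, group 3 minus group 1, was found for Plat (-0.60) and Serpinf1 (-1.16).

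A sample lay far from the rest of its group, by Dixon's criterion, in 3 of the 27 groups with any count; chance gives about 1 in 20. Plau was at 0.226 FPM in A035 (NRKE, pH 7.4), on 4 counts. Plaur was at 58.1 FPM in A052 (NRKF, pH 7.4), and Serpinh1 at 753 FPM in A042 (NRKF, pH 6.0). A021, with the most signal of NRKF genes, passed this criterion for Serpine2 (69.3 FPM).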

How the results depend on the processing

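Of 23 called log2 fold changes of members (6 comparisons, the NRKE sample group difference included), none changed direction under any alternative run. The call was lost in 9 fits, each named in the report with its value or here: Plaur in NRKF was 0.26 in sample group 4 (adjusted p = 0.123) and 0.26 in group 6 (adjusted p = 0.0855). Of the 13 that were not called, direction changed for Plaur in NRKE in group 3 (-0.0566), and in NRKF for Serpine2 in group 4 (-0.0306), Serpinh1 in group 4 (0.12) and Serpinb2 in group 6 (0.50). For Serpine2 the difference between NRKE sample groups ranged from -0.59 to 0.0871 (without A023) with 1 library left out (all libraries: -0.17), and was -0.83 (adjusted p = 0.00919) after subtraction of NRKF signal; the cause was not tested.

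Counts of called genes stayed within 1.5 times for the responses and line comparisons. The count for the NRKE sample group difference, 1534, was 454 without A021, A022 and A033, where group 1 at pH 7.4 keeps 1 library, assumed to vary like the others. For NRKF it was 0, with 10 by DESeq2 and 0 to 7 with 1 library left out (7 without A043). Calls of Plau over 4 tests were 0, and 0 to 1 with 1 library left out. Among 59 results of listed genes that were followed, direction changed for 1, the difference between the lines for S100a10 (-0.02). It was 0.0286 with RLE size factors, 0.00116 without the count filter, 0.0284 by DESeq2, 0.00453 after subtraction, and -0.13 to 0.13 with 1 library left out. Further results of listed genes were not followed singly. For the collagen list the median difference between the lines went from -0.35 to 0.13 after subtraction of NRKF signal. In NRKF the calls of Plod2, P3h1, P4hb, S100a10, Serpini1 and P4ha2 were lost in 14, 9, 5, 5, 5 and 4 of the 23 fits without 1 library. In NRKE, fitting the line alone, sample group 1 alone or both lost the calls of Itgb1, Plod2, P4ha3, Col5a2, Serpinb8, S100a10, Fkbp10 or Serpinb9. Sample group 3 alone lost that of Col5a1, and the fit without A021, A022 and A033 those of Plod2, Serpinb8 and Serpinb9. Depth limits Plau and, in NRKE, Serpinb2.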
